A study of Mus musculus with 12 samples.

Results

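Mitochondrial ribosomal proteins are the nucleus-encoded proteins of the ribosome inside mitochondria. Their genes were followed in hearts of mice carrying mutant IDH2, the mitochondrial isocitrate dehydrogenase, and of control mice. Members were the genes whose only symbol in the platform annotation starts with Mrpl (large subunit) or Mrps (small subunit) followed by a digit. There were 77 members among 19937 genes tested, 48 with an Mrpl and 29 with an Mrps symbol. For the 8 members with several probe sets, the brightest over all arrays was used. The rule used symbols and brightness only, not differences between groups.

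RNA from whole hearts was measured on 12 Affymetrix mouse Gene 1.0 ST arrays. The 3 groups of 4 arrays were control mice, IDH2 R140Q mutant mice and IDH2 R172K mutant mice, all with a genetic background mixed from 129/sv, Balb/c and C57BL/6. Per the labels' protocols, the mutant mice received 4-hydroxytamoxifen, a ligand that activates tamoxifen-dependent Cre recombinase, at a dose of 2 mg for 3 days at 5 weeks of age. What the controls received, the Cre driver, the sex of the mice and the age at dissection are not stated. The drug and the mutation therefore cannot be told apart in either comparison with control. Whether each array came from its own animal is not stated, so each p-value reflects only how these samples vary, which may be technical.

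The mitochondrial ribosome translates the few messages of mitochondrial DNA, which code for core subunits of the respiratory chain and ATP synthase. Its RNAs come from mitochondrial DNA, whereas all its proteins are made in the cytosol and imported. Some of these proteins have counterparts in bacterial ribosomes and others occur only in mitochondria. The heart depends on oxidative phosphorylation and is rich in mitochondria. By the uniform ribosomal protein names 45 members were classed as conserved and 32 as specific to mitochondria. A few symbols do not name the place of the protein. Mrps30 and Mrps18a lie in the large subunit, and Mrps36 is a component of the oxoglutarate dehydrogenase complex, so that 50 members belonged to the large and 26 to the small subunit by place.

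Promoters of the members that the comparisons turn on are given first, because several share letters or a start region with a neighbour. RefSeq start sites on GRCm38.p6 were available for 68 of the 77 members, and the 250 bases before each start were searched on both strands. The element read by ETS factors, CCGGAAG, stood before 17 members (25%), against 15.7% of genes brighter than the median gene and 7.83% of all genes. The first 9 letters of the palindromic NRF1 element, GCGCATGCG, stood before 7 members (10.3%, against 3.6% and 1.64%), namely Mrpl9, Mrpl10, Mrpl17, Mrpl22, Mrpl32, Mrpl39 and Mrps18b. The whole palindrome, counted first, stood before 3 (4.41%, against 1.96% and 0.877%). The YY1 element AAGATGGC stood before Mrpl32, Mrpl36, Mrps11 and Mrps12 (5.88%, against 2.38% and 1.83%). The cyclic AMP element TGACGTCA stood before 2.94% of members (3.0% and 1.77%), and the SP1 element GGGGCGGGG before 19.1% (23.9% and 11.8%). A match is a description of these letters and not a binding site, and different elements do not overlap in the stretches printed. Of the 10 members that were lower in R172K, 3 had the ETS element, namely Mrpl18, Mrpl34 and Mrpl52. Capitals mark the matches in the stretches below, written 5′ to 3′ on the strand of the gene. Stretches that RefSeq covers with a gene span are cut to 30 bases. Mrpl52 (chr14:54426759-54426908, plus strand) carries the ETS element as its reverse complement, and Mrpl34 (chr8:71464776-71464925, plus strand) as written. Mrpl36 (chr13:73330979-73331008, plus strand) shows the reverse complement of the YY1 element and Mrpl9 (chr3:94443306-94443335, plus strand) the NRF1 element, matched on both strands. Each of these stretches lies inside the RefSeq span of its own gene, which begins farther upstream. Mrpl43 (chr19:45006443-45006472, minus strand) shows the nearer of its ETS matches, in the region it shares with Twnk. The last line is the whole stretch between the starts of Mrpl46 and Mrps11 (chr7:78783090-78783130, minus strand), which held none of the 5 elements.
Mrpl52: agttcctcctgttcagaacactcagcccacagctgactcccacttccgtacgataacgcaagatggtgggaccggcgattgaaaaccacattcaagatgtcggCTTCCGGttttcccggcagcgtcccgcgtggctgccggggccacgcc
Mrpl34: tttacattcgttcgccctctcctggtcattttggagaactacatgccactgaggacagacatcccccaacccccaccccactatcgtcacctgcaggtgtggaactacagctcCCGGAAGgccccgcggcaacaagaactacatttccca
Mrpl36: GCCATCTTtcttcctggcggtggcgtccca
Mrpl9: ctGCGCATGCGCggggtccttcttccgcct
Mrpl43: catgccacaaccccggaaCCGGAAGtcacc
Mrpl46: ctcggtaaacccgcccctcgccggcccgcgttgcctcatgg

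Array medians lay between 74.8 and 78.0 intensity units. All members were brighter than the median gene, with means of 6.71 to 10.70 on the log2 scale against 6.69, so none was lost to a filter on dim genes. Differences below are mutant minus control on the log2 scale of the RMA intensity, with limma's standard error, and a gene was called changed at a Benjamini-Hochberg adjusted p under 0.05 over all 19937 genes. Both mutants were compared with the same 4 control arrays. The cardiac gene Myh6 was between 12.84 and 13.42 on every array. Some arrays stood apart from their groups. Control 3 and R172K 3 were highest in the atrial gene Myl7 (12.49 and 11.36, against 5.23 to 9.21 elsewhere), R140Q 4 in lung markers, and R172K 4 was lowest in cardiomyocyte markers. Without control 3, R140Q 4 and R172K 3 together, 1 member was called in R140Q, 16 in R172K and 11 between the mutants, where all arrays gave 3, 15 and 4. The same fit called 1.78%, 17.3% and 4.04% of all genes in these comparisons, against 2.2%, 13% and 1.48% with all arrays. Over the 3 comparisons 17 of 77 members were called at least once. The share of all genes called at least once was not counted. In R172K against control alone, 22% of genes brighter than the median gene were called.

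R172K hearts had 10 members lower and 5 higher than control, 15 of 77 (19.5%). Over all genes 13% were called, 6.78% lower and 6.23% higher, and among genes brighter than the median gene 22% were called, 11.3% lower and 10.7% higher. Of the members 13.0% were lower and 6.49% higher. The share of members called was therefore near that of other bright genes. The median difference of the members was -0.10, against -0.003 over all genes, and single members ran from -0.77 to 0.53. Without R172K 4 the members' median was -0.03, and without control 2 it was -0.06. All R172K arrays lay below all controls for 13 members, or 16.9% (8.72% of all genes), and above them for 5 members, or 6.49% (7.47%). Such shares without overlap were not counted over bright genes alone, here or in the later comparisons. By sign 42 of 77 members were lower, which is 54.5% against 50.9% of all genes and 47.4% of bright genes.

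**Figure D1:**
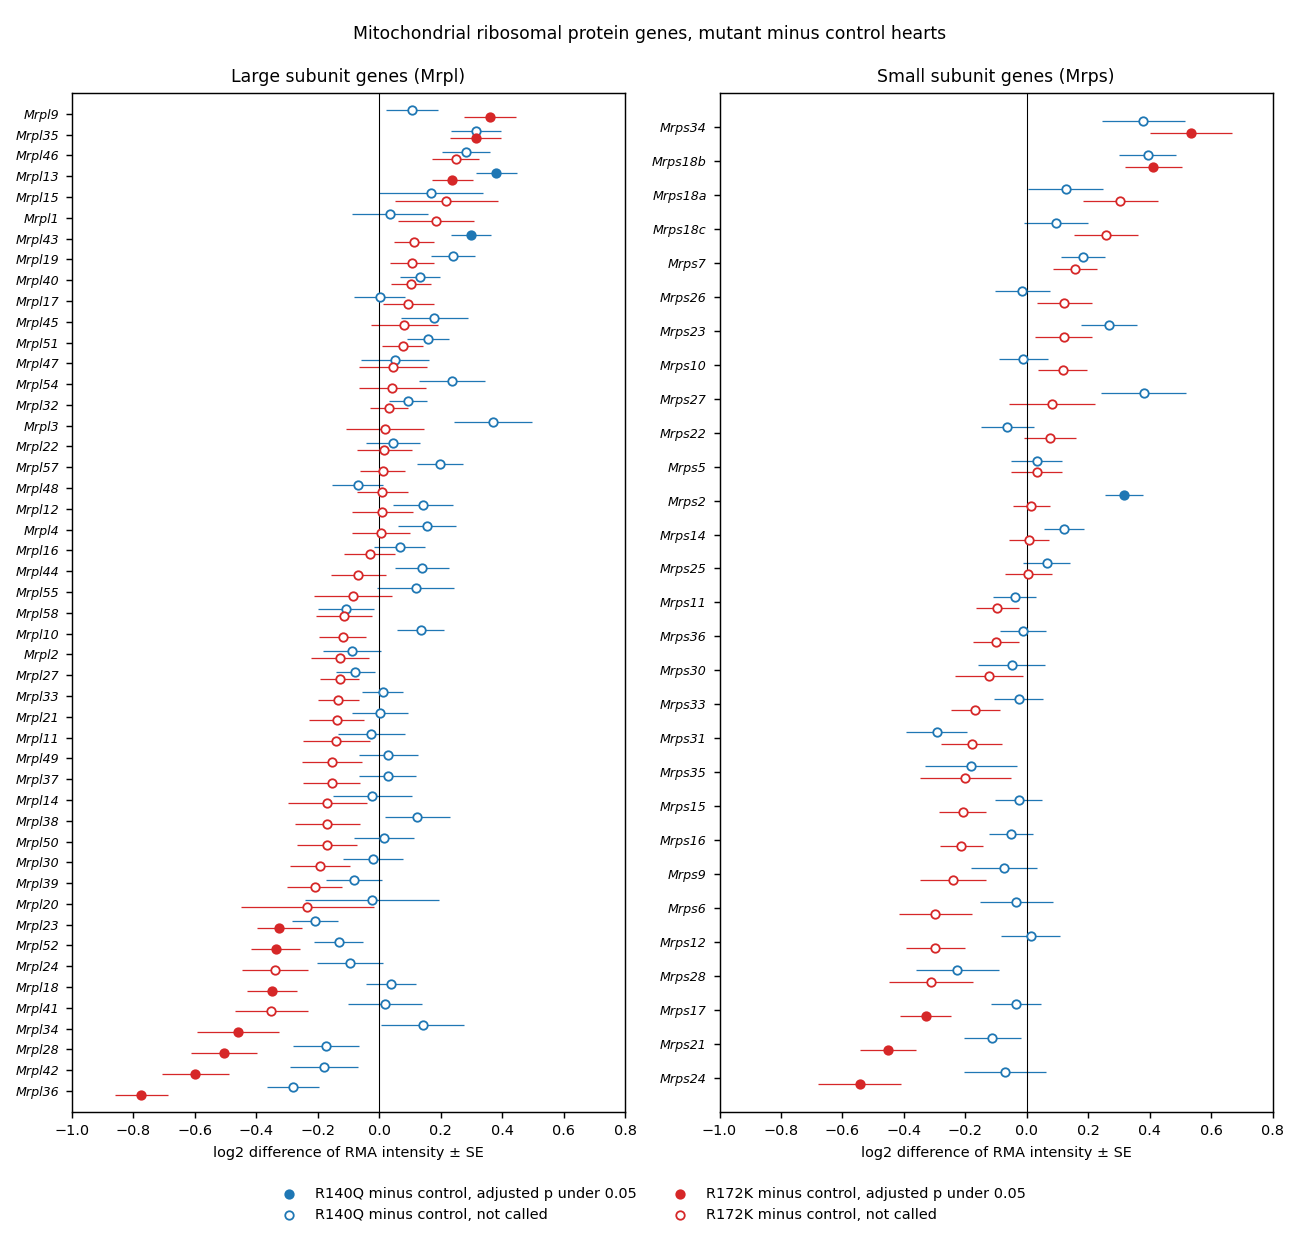
Log2 difference of RMA intensity from control (x axis, mean of 4 minus mean of 4 arrays, bars ± limma's SE) of each of the 77 members (y axis), in R140Q and in R172K hearts, with called members marked. R172K differences reach from -0.77 for Mrpl36 to 0.53 for Mrps34, whereas those of R140Q stay between -0.29 and 0.39.

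Lower members came from both subunits. Mrpl36, the small bL36 protein of the large subunit, was at 9.33, 9.47, 9.32 and 9.49 in control arrays 1 to 4. It was at 9.16, 9.18, 9.08 and 9.06 in R140Q and at 8.52, 8.44, 8.82 and 8.74 in R172K. The groups did not overlap, and every R172K array lay below every R140Q array. The difference was -0.77 ± 0.09 in R172K (limma adjusted p = 0.000678), which is 0.585 of the control intensity, and -0.28 ± 0.09 in R140Q (adjusted p = 0.108). Mrpl42, a large-subunit protein specific to mitochondria, was at 9.65, 9.86, 9.94 and 9.71 in control and at 9.31, 9.26, 9.31 and 8.88 in R172K. R172K 4 stood apart at the low end of this group, and no R172K array reached the lowest control. Its difference was -0.60 ± 0.11 (adjusted p = 0.00565).

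Mrpl28 (bL28) was at 9.07, 9.18, 8.87 and 8.92 in control and at 8.38, 8.65, 8.75 and 8.24 in R172K. The groups did not overlap, and the difference was -0.51 ± 0.11 (limma adjusted p = 0.0105). Mrpl18 (uL18), which binds the RNA of the central protuberance in ribosomes, was at 9.64, 9.59, 9.65 and 9.59 in control and at 9.17, 9.27, 9.48 and 9.15 in R172K. All 4 R172K arrays were lower, R172K 3 the least, and the difference was -0.35 ± 0.08 (adjusted p = 0.0153), or adjusted p = 0.0537 without R172K 1. Mrpl23 (uL23), which lies near the exit of the peptide tunnel, was at 10.68, 10.97, 10.89 and 10.81 in control and at 10.48, 10.43, 10.63 and 10.49 in R172K. It fell by 0.32 (adjusted p = 0.0139), the nearest arrays being control 1 and R172K 3. Mrpl52, specific to mitochondria, was at 8.87, 8.96, 8.84 and 8.85 in control and at 8.47, 8.59, 8.37 and 8.75 in R172K. All R172K arrays were lower, R172K 4 the least, and it fell by 0.34 (adjusted p = 0.0168, or up to 0.057 without control 2 or R172K 1). Mrpl34 (bL34) was at 10.40, 10.64, 10.38 and 10.50 in control and at 9.67, 10.07, 10.44 and 9.89 in R172K. R172K 3 overlapped the controls, and the difference of -0.46 ± 0.13 (adjusted p = 0.041) passed the test in only 1 of the 12 fits that each left out 1 array.

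The small subunit had 3 lower members, all with bacterial counterparts. Mrps21 (bS21) was at 10.38, 10.53, 10.65 and 10.35 in control and at 9.90, 10.07, 10.18 and 9.95 in R172K. All R172K arrays lay below the controls, by -0.45 ± 0.09 (limma adjusted p = 0.00883). Mrps24 (uS3), part of the channel through which messenger RNA enters, was at 9.73, 9.68, 9.54 and 9.74 in control and at 9.11, 9.26, 9.46 and 8.69 in R172K. Its R172K arrays were widely spread with R172K 4 the lowest, and the difference was -0.54 ± 0.13 (adjusted p = 0.0198). Mrps17 (uS17) was at 7.24, 7.38, 7.33 and 7.18 in control and between 6.80 and 7.10 in R172K. It fell by 0.33 (adjusted p = 0.0206) without overlap. The call on Mrps24 was lost without control 1, control 2, control 4 or R172K 1 (adjusted p up to 0.0564), and that on Mrps17 without control 2 or control 3 (up to 0.066). For 9 of the 10 lower members the R172K arrays did not overlap the controls. R172K 3 was the highest of the R172K arrays for 8 of the 10, and R172K 4 the lowest for 4.

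The 5 higher members were Mrps18b and Mrps34 of the small subunit and Mrpl9, Mrpl35 and Mrpl13 of the large one. Mrps18b, a form of the S18 protein specific to mitochondria, was at 9.29, 9.37, 9.36 and 9.37 in control. It was at 9.96, 9.67, 9.75 and 9.58 in R140Q and at 9.80, 9.97, 9.61 and 9.65 in R172K. Every array of both mutants was above every control. The difference was 0.41 ± 0.09 in R172K (limma adjusted p = 0.0143) and 0.39 ± 0.09 in R140Q (adjusted p = 0.0501, just short of the threshold). Mrps34, also specific to mitochondria, was at 8.38, 8.57, 8.26 and 8.57 in control and at 8.99, 9.31, 8.83 and 8.78 in R172K. The groups did not overlap, and the difference was 0.53 ± 0.13 (adjusted p = 0.0218). Mrpl9 (bL9), whose NRF1 match is printed above, was at 8.70, 8.85, 8.61 and 8.69 in control and at 9.06, 9.22, 9.13 and 8.88 in R172K. All R172K arrays were higher, by 0.36 ± 0.09 (adjusted p = 0.0168). Mrpl35 (bL35) rose by 0.31 in R172K (adjusted p = 0.0258), with R172K 4 level with the highest control. The calls on Mrps34 and Mrpl35 each held in 8 of the 12 fits that left out 1 array, and were lost without control 1, control 3, R172K 1 or R172K 2 (adjusted p up to 0.0604 and 0.0775). In R140Q its difference was also 0.31 and did not pass (adjusted p = 0.0667).

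R140Q hearts had 3 members higher and none lower than control, 3.90% against 2.2% of all genes (1.08% higher and 1.12% lower) and 3.59% of bright genes. By sign 32 of 77 members (41.6%) were lower, against 49.1% of all genes and 45.7% of bright genes. A further 15 of the 18 members with an unadjusted limma p under 0.05 did not pass after adjustment. Over all genes 3394 of 19937 had such an unadjusted p. Mrpl13 (uL13) was at 8.82, 9.00, 8.97 and 9.04 in control, at 9.42, 9.38, 9.30 and 9.26 in R140Q and at 9.27, 9.17, 9.21 and 9.12 in R172K. All mutant arrays lay above all controls. It was the only member called in both mutants, at 0.38 ± 0.07 in R140Q (limma adjusted p = 0.0158) and 0.24 ± 0.07 in R172K (adjusted p = 0.0348). With 1 array left out these calls held in 10 and 7 of 12 fits; the first was lost without control 1 or R140Q 1, the second without control 1, 2 or 3 or R172K 1 or 2. Mrps2 (uS2), a conserved small-subunit protein, was at 8.72, 8.79, 8.78 and 8.88 in control, at 9.18, 9.03, 9.16 and 9.06 in R140Q and at 8.81, 8.84, 8.85 and 8.73 in R172K. R140Q stood above both other groups, which overlapped, and the R140Q difference was 0.32 ± 0.06 (adjusted p = 0.0229). That call held in 7 of the 12 fits, not without control 1, 2 or 3 or R140Q 1 or 3. Mrpl43, specific to mitochondria, was at 8.50, 8.69, 8.49 and 8.65 in control and at 8.98, 8.82, 8.86 and 8.85 in R140Q. R140Q lay above control by 0.30 ± 0.07 (adjusted p = 0.0381), a call kept in 3 of the 12 fits that left out an array. R140Q arrays were all above control for 12 members, or 15.6% (7.79% of all genes), and all below for 1, Mrpl36, or 1.30% (7.04%).

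The mutants were then compared directly. R172K had 4 members lower than R140Q and none higher, 5.19% against 1.48% of all genes (0.998% lower and 0.487% higher) and 2.6% of bright genes. These were Mrpl36 (-0.49 ± 0.09, limma adjusted p = 0.0275), Mrps2 (-0.30 ± 0.06, adjusted p = 0.0406), Mrpl18 (-0.39 ± 0.08, adjusted p = 0.0444) and Mrpl34 (-0.60 ± 0.13, adjusted p = 0.0494). In all 4 the groups of arrays did not overlap, and Mrpl34 was at 10.71, 10.54, 10.73 and 10.49 in R140Q. By sign 64 of 77 members (83.1%) were lower in R172K than in R140Q, against 51.1% of all genes and 50.4% of bright genes, with a median of -0.13 against -0.003. All R172K arrays lay below all R140Q arrays for 12 members, or 15.6% (4.64% of all genes), and above for 0 (3.07%), with bright genes not counted apart. An unadjusted limma p under 0.05 was reached by 23 of 77 members and by 3256 of 19937 genes. Leaving out 1 array gave between 0 and 12 members, and the calls over all genes moved with them. Without R172K 3, which gave 12 members, 1577 genes (7.91%) were called, and the fits with 0 members called 1 to 45 genes. A fit to the 2 groups alone called 0 members and 9 of all genes. Without R172K 4 the sign count was 53 of 77 and the median -0.08.

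**Figure D2:**
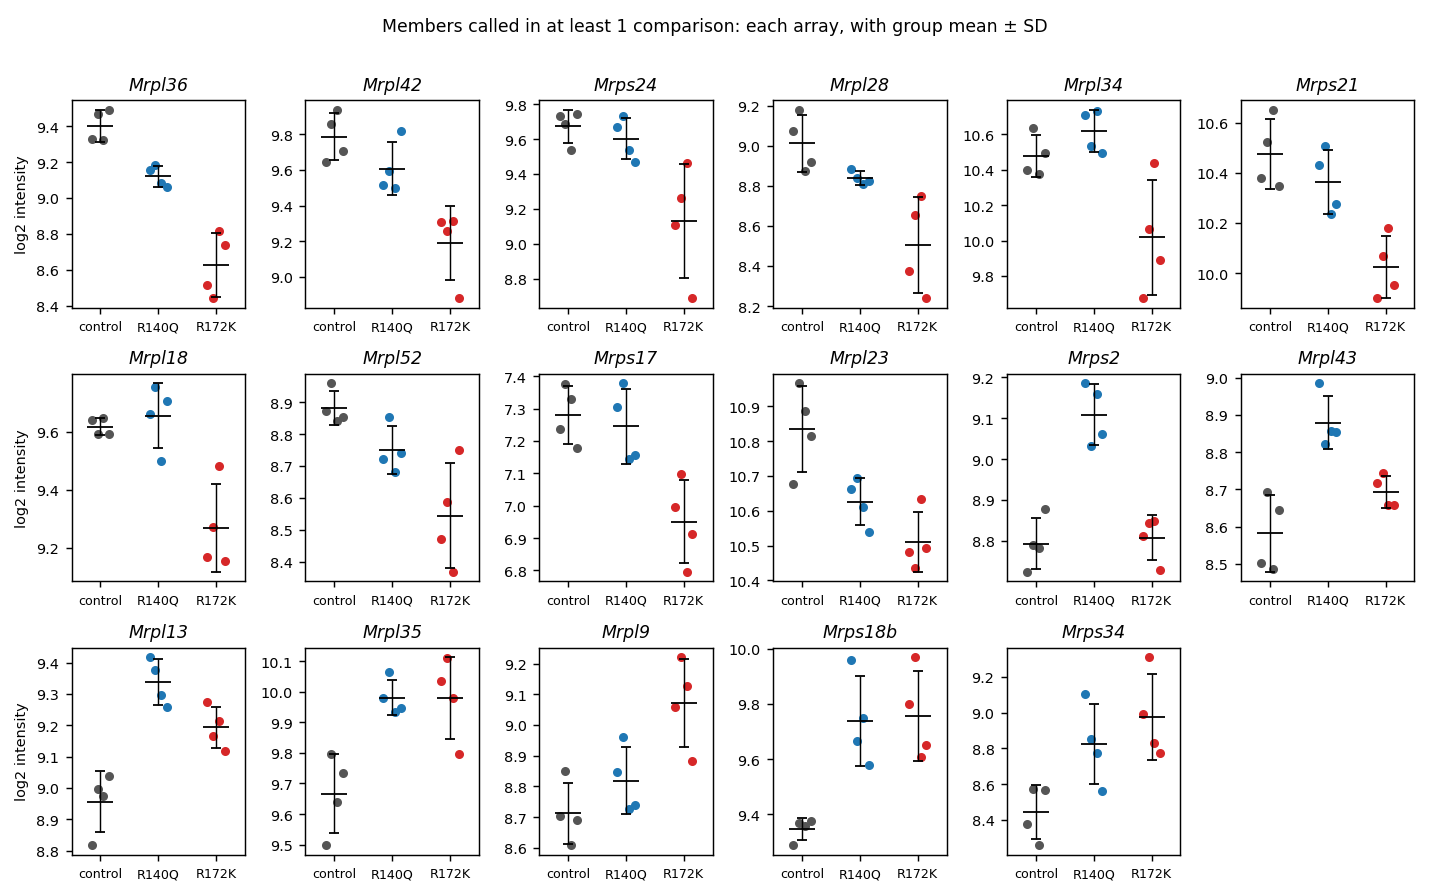
Log2 RMA intensity of each array (points, y axis) in control, R140Q and R172K (x axis), with the mean ± SD of 4 arrays, for the 17 members called in at least 1 comparison. For Mrpl36 the R172K arrays, at 8.44 to 8.82, lie below both other groups. For Mrps2 the R140Q arrays, at 9.03 to 9.18, lie above both other groups.

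The subunits were described side by side against control. In R172K, 7 of 48 Mrpl genes were lower and 3 higher with a median of -0.10, and 3 of 29 Mrps genes were lower and 2 higher, also with a median of -0.10. Grouped by place, the medians were -0.10 for 50 large-subunit and -0.05 for 26 small-subunit genes. In R140Q the medians were 0.04 and -0.01 by symbol, with 2 and 1 members higher, and 15 of 48 Mrpl against 17 of 29 Mrps genes were lower by sign. Against R140Q, 43 of 48 Mrpl and 21 of 29 Mrps genes had a lower R172K level, with medians of -0.14 and -0.09. No test of one subunit against the other was made. Among the 45 conserved members 8 were lower and 3 higher in R172K, with a median of -0.12, and among the 32 mitochondria-specific members 2 were lower and 2 higher, with a median of -0.03. The 15 conserved small-subunit genes had the lowest median of the 4 classes, -0.21, with 3 lower and 0 higher, and the 11 mitochondria-specific small-subunit genes had a median of 0.08, with 2 higher and 0 lower. Single R172K arrays had medians from -0.32 (R172K 4) to -0.03 (R172K 3) in the former class and from -0.09 to 0.12 in the latter. In R172K 6.78% of all genes and 11.3% of bright genes were called lower, and 6.23% and 10.7% higher. In R140Q 1.08% and 1.95% were called higher.

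Members with a role or place of their own gave the following values. Mrpl12, of the stalk that recruits translation factors, differed by 0.01 ± 0.10 in R172K (limma adjusted p = 0.968) and by 0.14 ± 0.10 in R140Q (adjusted p = 0.528). Mrps12, of the decoding centre, had -0.30 ± 0.10 in R172K (adjusted p = 0.0586). Neither passed the test. Mrpl58, the peptidyl-tRNA hydrolase known as ICT1, had -0.11 ± 0.09 (adjusted p = 0.475), and Mrps36 -0.10 ± 0.08 (adjusted p = 0.45). Mrpl39, among the 3 brightest probe sets, had -0.21 ± 0.09 (adjusted p = 0.155), and Mrpl22, among the 3 dimmest, 0.02 ± 0.09 (adjusted p = 0.939). Mrps30 had -0.12 ± 0.11 (adjusted p = 0.534) and Mrps18a 0.30 ± 0.12 (adjusted p = 0.128). None of these 6 passed in R172K, and in R140Q their differences lay between -0.11 and 0.13. In R172K 27 of 77 members and 5302 of 19937 genes had an unadjusted limma p under 0.05.

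Probe sets of 1 gene did not always give 1 answer. For Mrpl51 the brighter probe set, used above, was at 10.61, 10.72, 10.56 and 10.60 in control and at 10.74, 10.74, 10.78 and 10.53 in R172K. The dimmer one was at 9.94, 10.15, 9.86 and 9.79 in control and at 9.12, 9.46, 9.79 and 9.38 in R172K. The first overlapped and gave 0.08 (limma adjusted p = 0.538), whereas the dimmer gave -0.50 (adjusted p = 0.0184), in a fit chosen after seeing the data. Mrpl47 likewise gave 0.04 (adjusted p = 0.855) and -0.42 (adjusted p = 0.0364). Mrps33 gave -0.17 (adjusted p = 0.202) and -0.29 (adjusted p = 0.0365), and Mrpl23 -0.32 and -0.30, the second with adjusted p = 0.0583. Mrpl27, Mrpl41 and Mrps5 had probe sets that differed in sign in R140Q, with differences from -0.08 to 0.03 and none called. In R172K their probe sets used above had -0.13, -0.35 (adjusted p = 0.0716) and 0.03. Which transcripts each probe set reads was not tested.

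Start regions shared with a neighbour on the opposite strand were common. Within 1000 bases, 26 of 68 members (38.2%) had such a neighbour, against 12.2% of all genes and 19.7% of bright genes. Of 24 measured partners 2 were higher and 3 lower in R172K, and none was called in R140Q. Over all genes 13% were called in R172K and 2.2% in R140Q, and among bright genes 22% and 3.59%. Twnk, the mitochondrial DNA helicase, starts 116 bases from Mrpl43 and was lower in R172K by -0.40 ± 0.12 (limma adjusted p = 0.0469), while Mrpl43 had 0.11 (adjusted p = 0.307). Ndufb5, a complex I subunit beside Mrpl47, had -0.21, and Cyb5rl beside Mrpl37 had -0.49. Psma2, a proteasome subunit beside Mrpl32, had 0.38, and Mitd1 beside Mrpl30 had 0.37. Tcp1, a chaperonin subunit 238 bases from Mrpl18, had 0.00 in R172K, where Mrpl18 was lower.

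Other genes of mitochondrial translation were read from lists written with earlier results of these data known. In R172K, 7 of 27 genes for ribosome assembly and RNA modification were lower and 0 higher, with a median of -0.16. For these and the next lists, 6.78% of all genes and 11.3% of bright genes were called lower in R172K. Tfb1m, which methylates the small-subunit RNA, was at 8.80, 9.01, 8.47 and 8.53 in control, at 8.30, 8.06, 8.16 and 8.27 in R140Q and at 7.15, 7.40, 8.35 and 7.40 in R172K. R172K 3 lay near the controls and far from the other R172K arrays, and the difference was -1.13 ± 0.21 (limma adjusted p = 0.00613). Mtg2, a GTPase of large-subunit assembly, was at 8.01, 8.06, 7.93 and 7.96 in control. It was at 7.54, 7.56, 7.39 and 7.73 in R140Q and at 7.02, 7.28, 7.55 and 7.11 in R172K. Both mutants lay below control, and R172K 3 overlapped R140Q. The R172K difference was -0.75 ± 0.11 (adjusted p = 0.00205), and 0 genes of this list were called in R140Q. Mterf3, which acts on ribosome assembly and mitochondrial transcription, fell by 0.36 (adjusted p = 0.00472). Mettl17, Mettl15, Noa1 and Ybey were also lower, by -0.62 to -0.35.

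Of 15 translation factors 4 were lower and 1 higher in R172K, with a median of -0.18. Mrrf, which recycles ribosomes, fell by 0.58 (limma adjusted p = 0.0116), and the elongation factor Tufm fell by 0.47 (adjusted p = 0.0271). Mtrf1, a release factor, fell by 0.42 (adjusted p = 0.0079) and the initiation factor Mtif2 by 0.41 (adjusted p = 0.033). Guf1, a ribosome-bound GTPase, rose by 0.33 (adjusted p = 0.024). Of 19 genes for charging mitochondrial tRNAs 4 were lower and 0 higher, with a median of -0.15. Cars2, the cysteinyl-tRNA synthetase, was at 8.94, 8.85, 8.80 and 8.83 in control, at 8.40, 8.69, 8.12 and 8.56 in R140Q and at 7.52, 7.34, 8.25 and 7.44 in R172K. Both mutants lay below control, and R172K 3 overlapped R140Q. The R172K difference was -1.22 ± 0.17 (adjusted p = 0.00205), and that against R140Q was -0.81 ± 0.17 (adjusted p = 0.0463). Ears2 (glutamyl-tRNA) and Gatc (glutaminyl-tRNA formation) were lower in both mutants, by -0.39 and -0.36 in R172K and by -0.31 (adjusted p = 0.0446) and -0.28 (adjusted p = 0.0481) in R140Q. Of 11 genes for mitochondrial DNA transcription and copy number Top1mt, Polg and Twnk were lower, with a median of -0.21. The 4 ribosome genes with other names (Dap3, Ptcd3, Chchd1 and Gadd45gip1) had 0 called. Medians of these 4 longer lists in R140Q lay between -0.04 and 0.01.

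**Figure D3:**
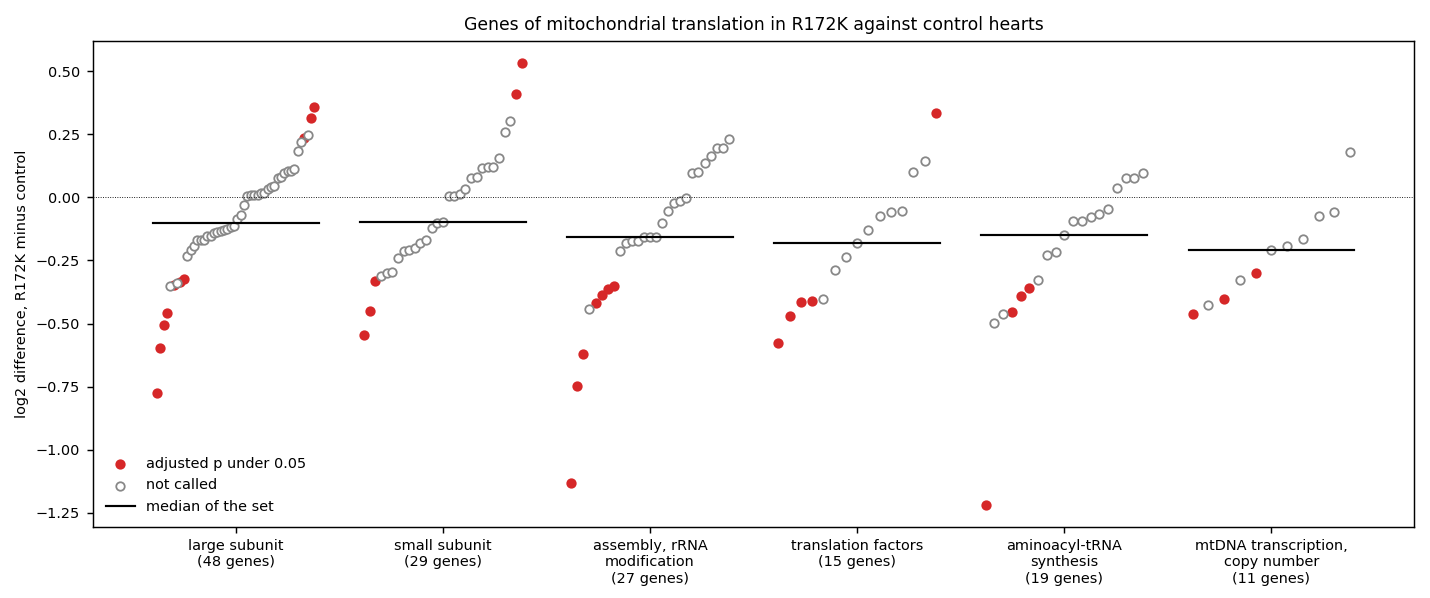
Log2 difference of R172K from control (y axis) of each gene of the large subunit, the small subunit and 4 lists of mitochondrial translation (x axis), with called genes marked and the median of each as a line. Medians of the 4 lists lie between -0.21 and -0.15, and Cars2 and Tfb1m lie lowest, at -1.22 and -1.13.

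Some markers of cell types differed between the groups. In bulk hearts fewer cells of a type and less RNA per cell cannot be told apart. The summed intensity of 16 cardiomyocyte markers ran from 130798 to 137919 in control, 121376 to 127329 in R140Q and 101348 to 123359 in R172K, and 7 of them were lower in R172K, among them Myl2 and Ckm. The summed intensity of the members ran from 45241 to 50028 in control, 47190 to 50850 in R140Q and 40904 to 47302 in R172K. Fibroblast markers ran from 12522 to 17152 in control, 13122 to 18800 in R140Q and 15387 to 28169 in R172K, with 6 of 11 higher in R172K. Macrophage markers ran from 2063 to 2931, 2411 to 2883 and 2240 to 5794 in the same order, with 3 of 11 higher in R172K. Endothelial markers had 3 of 9 higher in R140Q and 2 in R172K, smooth muscle and pericyte markers 2 of 7 higher in R172K, and brown fat markers 1 of 4 higher in both mutants and 1 lower in R172K. In R172K 6.23% of all genes were called higher and 6.78% lower, and of bright genes 10.7% and 11.3%. In R140Q 1.08% of all genes and 1.95% of bright genes were called higher. Atrial markers ran from 5542 to 28249 in control, 1044 to 10355 in R140Q and 11331 to 20718 in R172K, with Myl4 alone called, between the mutants. These sums weigh the brightest markers most, among them Nppa, at 7.85 on the log2 scale in R140Q 2 and 11.08 to 13.48 elsewhere. Myl7 was at 6.18 to 12.49 in control, 5.23 to 6.04 in R140Q and 7.43 to 11.36 in R172K. Lung markers reached 4940 in R140Q 4 and no more than 344 in control and R172K. No marker was at 0. With the atrial gene Myl7 as a covariate 0 members were called in R140Q, 14 in R172K and 0 between the mutants, where 55 of 77 were lower by sign. That fit called 13, 2535 and 5 of 19936 genes in the same order. Every R140Q array lay below every other array in Myl7, so the fit cannot fully separate Myl7 from the R140Q group. The part of cell makeup in the members' differences was not tested.

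**Figure D4:**
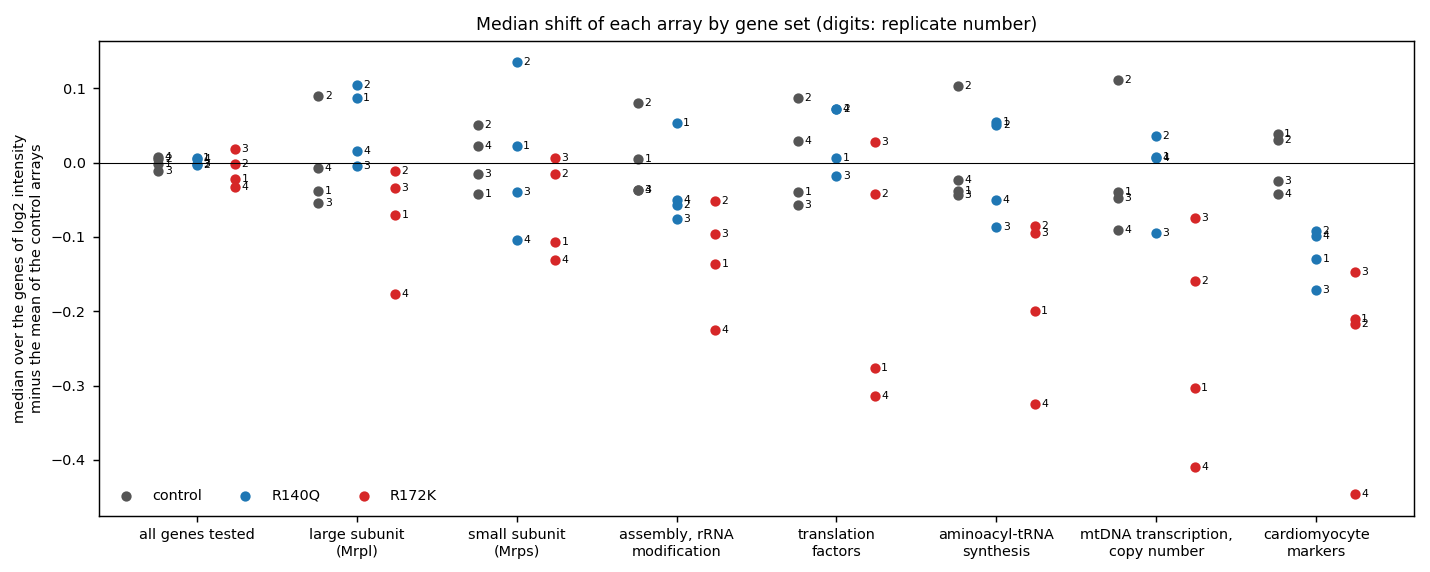
Median over the genes of a set of the log2 intensity minus the control mean (y axis) for each array (digits give the replicate number), by gene set (x axis) and group. R172K 4 is lowest for the large and the small subunit, at -0.18 and -0.13, and for cardiomyocyte markers, at -0.45. R140Q 2 is highest for the large and the small subunit, at 0.11 and 0.14.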

How the data were processed

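Per the submitters' processing notes, RMA made the deposited intensity values, which the authors left on a linear scale; the tool's version was not stated. RMA gives all arrays one distribution, so it hides any change that most genes share. Here log2 of the intensity was taken, with no pseudocount. Of 34760 probe sets 21640 carried 1 symbol, giving 19937 genes; 1 probe set listing a member among several symbols was left out. The 12 arrays entered one two-sided fit (lmFit, then eBayes) with limma 3.58.1 under R 4.3.3, tested on simulated data. The number of arrays limits the precision. Control 1 and control 2, the closest pair (r = 0.994), were not duplicates. Sequences and spans are from RefSeq GRCm38.p6, and all 77 members matched its gene table. Members, gene lists, marker lists and tests were chosen with earlier results of these data known. The text names, per comparison, called members (up to 8 each way by smallest p), the brightest and dimmest 3, members of known place or role, those whose probe sets disagree, and up to 3 called genes of each list and direction. Other called members, other list genes and promoter neighbours were picked once their values were known. Alternatives are in the closing section.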

Additional observations from a re-analysis of the deposited data

Results flagged for a closer look

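A single array lay far from the other 3 of its group in 4 of 90 groups over the 30 named members, and in 10 of 231 over all members; chance alone gives about 1 in 20 groups. Mrpl42 was at 8.88 in R172K 4, Mrps12 at 6.65 in control 3, Mrps18a at 9.70 in R140Q 4 and Mrpl27 at 8.90 in R140Q 1.

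The 2 mutants differed from each other, by limma's test of the difference, for Mrps2 (-0.30), Mrpl36 (-0.49), Mrpl18 (-0.39) and Mrpl34 (-0.60), all as R172K minus R140Q on the log2 scale. Against control Mrps2 was called in R140Q, and the other 3 were called in R172K. Of the 12 fits that each left out 1 array, the difference passed in 7 for Mrpl36, 2 for Mrps2, and 1 each for Mrpl18 and Mrpl34.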

How the results depend on the processing

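Of 15 members called in R172K, array weights gave 25, and leaving out single arrays gave 8 (without R172K 1) to 23 (without R172K 3). Calls over all genes moved with them, from 13% to 22.5%, 6.66% and 20.9% in these fits. Mrpl36, Mrpl42, Mrpl28, Mrps21 and Mrps18b were called in all 24 alternatives. The large-subunit median for R172K ran from -0.136 to -0.0240 over these omissions, the weakest without R172K 4. In R140Q, 3 members (2.2% of all genes called) became 8 with only the groups compared (6.73%) and 9 with array weights (8.28%). Without the dimmer genes 5 members were called (5.69% of 9968 genes). Without control 3, R140Q 4 and R172K 3 together 1 was called (1.78%), and 0 with Myl7 as a covariate (0.0652%). Leaving out single arrays gave 0 to 6 members (0.502% to 5.09% of all genes). Between the mutants, 4 members (1.48% of all genes called) became 0 with only the groups compared (0.0451%) and 12 with array weights (8.90%). Quantile normalization gave 2 (1.30%), and an intensity trend with robust variance 1 (0.898%). Without the 3 arrays 11 were called (4.04%), and 0 with Myl7 (0.0251%). Omitting single arrays gave 0 to 12 members (0.00502% to 7.91% of all genes). With the replicate number as a block 0 members were called in R140Q, 13 in R172K and 0 between the mutants, with 0.983%, 10.1% and 0.0552% of all genes. Correlations gave no clear sign that the numbers pair the samples. Of 12 same-numbered pairs 2 had a correlation over 0.1, and 3 of 12 arrays correlated best with their own number. This cannot exclude a pairing, because arrays that stood apart from their groups could mask it. With the dimmest probe set, chosen after seeing the data, Mrpl51 and Mrpl47 reversed in R172K, to -0.50 and -0.42. Over the 30 named members, 17 of which were called at least once, 1990 values kept direction and call, 126 lost and 42 gained a call. The causes were not tested. Dim probes were not filtered by detection.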
